A study of Mus musculus with 24 samples.

Results

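Caspases are proteases that cut their substrates after aspartate and that carry out apoptosis, pyroptosis and the processing of inflammatory cytokines. The members described here were Casp1, Casp2, Casp4, Casp6, Casp8 and Casp9, taken by name with every probe annotated to them, and they made up 6 of the 8820 genes tested. They had 12 of the 25697 probes on the array, and 9 of these probes were above background (detection p under 0.05) on at least 4 of the 24 arrays. Each of the 6 genes had at least 1 probe above background on 24 of 24 arrays.

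RNA came from thymocytes of C57BL/6J mice with the Il7r+/+ genotype, which all groups shared, in 4 sorts. The labels number the sorts, and they were treated as independent on that basis. Technical replicates are mentioned in the submitters' design text, but which arrays would be such replicates is not stated there. The p-values rest on the sorts being independent, which was not tested. All cells were sorted as lineage-negative and cKit-negative. The DN3a gate took small CD25+ cells with low CD71, the DN3b gate large CD25+ cells with high CD71, and the DN4 gate large CD25- cells with high CD71. After a rest of 1 h, each subset of each sort was cultured for 3 h with IL7 at 10 ng/ml or left untreated, which gave 6 groups of 4 arrays. The age of the mice and the number pooled for a sort were not given in the sources used here, so p-values hold for these 4 sorts. Culture pairs or sorts were blocks in the fits. The p-values thus measure how differences within a sort varied over the sorts, pooled over the subsets. Levels are log2 signals after background correction and quantile normalization, and a level of 1 probe cannot be set against that of another. Adjusted p-values are limma's, corrected over the 8820 genes, and a gene is said to rise or fall where that value was under 0.05.

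DN3a thymocytes have not yet passed beta-selection, the checkpoint that asks for a working T cell receptor beta chain, and DN3b and DN4 cells follow it. Thymocytes that fail such checkpoints die by apoptosis. In the intrinsic route cytochrome c and APAF1 assemble the apoptosome, which activates caspase-9. In the extrinsic route death receptors such as FAS recruit FADD and caspase-8, and both routes activate executioner caspases. Caspase-1 and caspase-11, which mouse Casp4 encodes, belong to the inflammatory branch: caspase-1 is activated on inflammasomes and processes interleukins 1 beta and 18 and gasdermin D. IL7 is a survival cytokine of early thymocytes that signals through JAK kinases and STAT5.

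As checks of the labels, Cish, a STAT5 target that encodes a cytokine signalling inhibitor, was higher with IL7 by 5.59 in DN3a, 5.72 in DN3b and 4.74 in DN4 cells on the log2 scale. Bcl2, which encodes an inhibitor of apoptosis upstream of caspase-9, was higher with IL7 by 4.85, 4.31 and 3.54 in the same subsets. In untreated cultures Il2ra, which encodes CD25, fell by 2.86 (log2) in DN4 against DN3b cells. Tfrc, which encodes CD71, was 0.79 higher in DN3b than in DN3a cells. In DN4 against DN3b cells it fell by 0.74, although both gates are labelled high in CD71. Pairs of arrays within a group had correlations of 0.9783 to 0.9926. Some libraries stood apart in transcripts of other blood cells. Hba-a1, an alpha globin gene, was above background on the 6 arrays of sort 1 and the 6 of sort 3, and on 0 arrays of sorts 2 and 4. S100a8, a granulocyte gene, reached 12.25 and 12.15 with IL7 and 12.39 and 12.29 untreated in DN4 cells of sorts 2 and 3, against levels up to 9.55 elsewhere. Caspase calls that ended without sorts 1 and 3, or without sorts 2 and 3, are therefore named beside the result. These omissions also leave fewer arrays. Calls among all genes for IL7 in DN3a cells went from 1850 to 616 and 478. A lost call cannot tell an effect of those transcripts from the loss of arrays.

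With IL7, 2 initiator and executioner caspases rose and 1 initiator fell. Casp8 rose in all 3 subsets, Casp6 rose in DN3b cells, and Casp9 fell in DN3a cells. The Casp8 call in DN4 cells was lost on omission of any 1 sort, and the Casp9 call without sort 1 or 2. Casp1, Casp2 and the probe that stood for Casp4 did not pass the test in any subset, while a second Casp4 probe, which showed another pattern, passed in DN3a cells. Of the 6 genes, 1 rose and 1 fell in DN3a cells, where 21% of all genes tested passed. In DN3b cells 2 rose, where 9.81% of all genes passed, and in DN4 cells 1 rose, where 2.44% passed. The median IL7 difference of the 6 genes was -0.04 in DN3a, -0.06 in DN3b and 0.06 in DN4 cells, beside all-gene medians of -0.03, -0.01 and -0.01 (log2).

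Casp6 and Casp8 rose together in DN3b cells, and Fas, which encodes the receptor upstream of caspase-8, rose in all 3 subsets, so their upstream sequences are shown. They were read from RefSeq (GRCm38.p6) as the 250 bases before the annotated start, plus strand, with motif matches in capitals. The Casp8 window is chr1:58802252-58802501. Its start site lies 7269 bases inside the gene's annotated span of 58795233 to 58847503 on chromosome 1. The Casp6 window is chr3:129901165-129901414, and the Casp6 gene spans 129901415 to 129914112 on chromosome 3. For Fas, on chromosome 19, only the stretch around 1 match is shown, chr19:34290546-34290594.
Casp8: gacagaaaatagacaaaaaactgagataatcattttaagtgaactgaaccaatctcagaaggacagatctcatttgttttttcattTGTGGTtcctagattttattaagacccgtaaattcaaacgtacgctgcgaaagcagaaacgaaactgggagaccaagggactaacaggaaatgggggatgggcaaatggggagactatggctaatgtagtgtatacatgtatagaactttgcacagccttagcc
Casp6: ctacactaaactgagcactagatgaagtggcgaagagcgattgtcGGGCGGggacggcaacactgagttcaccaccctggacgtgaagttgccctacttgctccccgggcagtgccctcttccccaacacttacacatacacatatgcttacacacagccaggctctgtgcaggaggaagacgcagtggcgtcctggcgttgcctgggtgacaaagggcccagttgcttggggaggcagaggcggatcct
Fas: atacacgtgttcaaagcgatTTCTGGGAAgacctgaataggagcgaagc
In all, 5 motifs were searched on both strands. The STAT-type palindrome TTCNNNGAA matched in 7.02% of 32851 annotated mouse promoter windows of the same length, the GC box GGGCGG in 32.7%, the RUNX core TGTGGT in 14.0%, the RBPJ core TGGGAA in 21.6% and the TATA box TATAAA in 12.4%. The capitals in Casp8 mark a RUNX core 164 bases upstream of the start, and those in Casp6 a GC box 205 bases upstream. The capitals in Fas mark TTCTGGGAA, a match to the STAT-type palindrome 93 bases upstream, which overlaps a match to the RBPJ core. The windows of Casp1, Casp2, Casp4, Casp6, Casp8 and Casp9 held no match to the STAT-type palindrome. A match is a description of letters and not a binding site, and TTCNNNGAA can stand outside these 250 bases.

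Casp8 encodes the initiator caspase of death receptor signalling, which also restrains necroptosis driven by RIPK3. In DN3a cells its level was 10.61, 10.58, 10.41 and 10.38 with IL7, against 10.11, 10.13, 9.92 and 10.06 untreated, in sorts 1 to 4. All 4 IL7 cultures lay above all 4 untreated ones, and the difference was 0.44 ± 0.06 (limma SE, log2), or 1.36-fold (adjusted p = 0.000246). In DN3b cells the level was 10.79, 10.81, 10.64 and 10.79 with IL7, against 10.10, 10.15, 10.15 and 10.05 untreated. Those groups did not overlap either, and the difference of 0.65 ± 0.06, or 1.57-fold, had an adjusted p of 1.39e-05. In DN4 cells the level was 10.41, 10.33, 10.06 and 10.15 with IL7, against 10.18, 9.98, 9.79 and 9.86 untreated. There the groups overlapped while each sort was higher with IL7, by 0.29 ± 0.06 or 1.22-fold (adjusted p = 0.0266). The DN4 call was lost under 8 of 14 alternative settings, among them the omission of any 1 sort and of either pair of sorts, with adjusted p-values from 0.00683 to 0.643 and differences from 0.26 to 0.32. The DN3b call held under all 14, and the DN3a call was lost only without sorts 1 and 3 (adjusted p = 0.0616) and without sorts 2 and 3 (adjusted p = 0.0899).

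A second Casp8 probe gave 0.46 ± 0.09 in DN3a (adjusted p = 0.00339), 0.70 ± 0.09 in DN3b (adjusted p = 0.000236) and 0.26 ± 0.09 in DN4 cells (adjusted p = 0.262). These p-values were adjusted over the 12939 probes kept. Its DN3a call was lost without sorts 1 and 3 (adjusted p = 0.246) and without sorts 2 and 3 (adjusted p = 0.094), and its DN3b call without sorts 1 and 3 (adjusted p = 0.0897). Over the 24 arrays its level correlated with that of the first probe at 0.896. Of the 6 groups, the mean Casp8 level was highest in DN3b cells with IL7, at 10.76 ± 0.08 (SD, n = 4). DN3a cells with IL7 followed at 10.50 ± 0.11 and DN4 cells with IL7 at 10.24 ± 0.16. Untreated DN3b cells stood at 10.11 ± 0.05, untreated DN3a cells at 10.05 ± 0.10 and untreated DN4 cells at 9.95 ± 0.17. No stage comparison of the 3 untreated means passed the test.

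Casp6 encodes an executioner caspase known to cleave lamin A. In DN3b cells its level was 10.66, 10.71, 10.75 and 11.01 with IL7, against 10.12, 10.34, 10.14 and 10.23 untreated. The groups did not overlap, and the difference was 0.57 ± 0.07, or 1.49-fold (adjusted p = 0.000163), a call lost under 1 of 14 alternatives, without sorts 1 and 3 (adjusted p = 0.0639). In DN3a cells the level was 10.44, 10.54, 10.44 and 10.67 with IL7, against 10.35, 10.38, 10.12 and 10.42 untreated. In DN4 cells it was 10.24, 10.18, 10.29 and 10.52 with IL7, against 10.06, 10.12, 10.06 and 10.30 untreated. The DN3a difference of 0.21 ± 0.07 (adjusted p = 0.0608) and the DN4 difference of 0.18 ± 0.07 (adjusted p = 0.361) did not pass the test, although all 4 sorts were higher with IL7 in both. A second Casp6 probe gave 0.44 ± 0.12 in DN3b cells (adjusted p = 0.0424) and was not past the threshold in DN3a or DN4 cells. Its call was lost under 6 of 9 alternatives, the omission of either pair of sorts among them, and it correlated with the first probe at 0.655 over 24 arrays.

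Casp9 encodes the initiator caspase of the apoptosome. In DN3a cells its level was 8.41, 8.45, 8.29 and 8.41 with IL7, against 8.82, 8.81, 8.43 and 8.60 untreated. Every sort was lower with IL7, with differences from -0.41 to -0.14, but the groups overlapped through untreated sort 3. The difference of -0.28 ± 0.07 (1.21-fold lower) had an adjusted p of 0.0116. It was lost without sort 1 (-0.23, adjusted p = 0.084), without sort 2 (-0.25, adjusted p = 0.1) and without the pairing of cultures (adjusted p = 0.0791), and over 14 alternatives the adjusted p ran from 0.00722 to 0.189. It was lost as well without sorts 1 and 3 (adjusted p = 0.144) and without sorts 2 and 3 (adjusted p = 0.189). Casp9 differed by -0.08 with IL7 in DN3b cells and by -0.09 in DN4 cells, neither past the threshold. The 2 other Casp9 probes were above background on 0 arrays.

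Casp2 encodes the caspase activated on the PIDDosome, a complex linked to centrosome number and p53. In DN3a cells all 4 IL7 cultures lay below all 4 untreated ones, but the difference of -0.17 ± 0.07 did not pass the test (adjusted p = 0.116). It was -0.13 ± 0.07 in DN3b (adjusted p = 0.32) and 0.05 ± 0.07 in DN4 cells (adjusted p = 0.882). Casp1 differed by -0.08 ± 0.08, -0.15 ± 0.08 and -0.09 ± 0.08 in the same subsets, with 95% intervals that reached from -0.32 to 0.09 over the 3. The probe that stood for Casp4 differed by 0.01 to 0.07 in size, with intervals from -0.28 to 0.32.

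**Figure D1:**
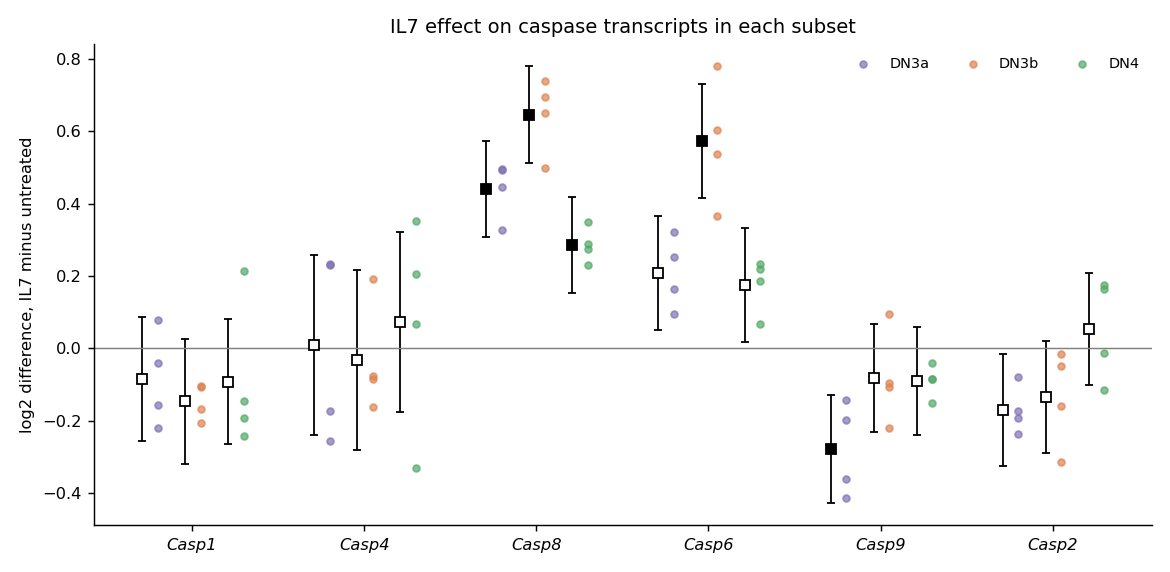
Log2 difference, IL7 minus untreated, for each caspase (x axis) in DN3a, DN3b and DN4 cells. Coloured points are the 4 sorts, squares the fitted mean with its 95% interval, filled where the adjusted p was under 0.05. All sorts lie above 0 for Casp8 and Casp6 in each subset, and Casp9 in DN3a cells lies at -0.28.

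Whether the IL7 effects differed between subsets was tested directly. None of the 6 genes passed, at 0 of 6 in each of the 3 comparisons. Among all genes, 1.7% passed for DN3b minus DN3a, 0.306% for DN4 minus DN3b and 5.36% for DN4 minus DN3a. Casp6 and Casp8 had unadjusted p-values under 0.05 in the first and the second of these, and Casp2 in the third. For Casp6 the IL7 effect was 0.36 ± 0.10 larger in DN3b than in DN3a cells (unadjusted p = 0.00372, adjusted p = 0.099) and lower in DN4 than in DN3b cells, at -0.40 ± 0.10 (adjusted p = 0.159). For Casp8 the IL7 effect was 0.21 ± 0.09 larger in DN3b than in DN3a cells (adjusted p = 0.274) and lower in DN4 than in DN3b cells, at -0.36 ± 0.09 (unadjusted p = 0.0012, adjusted p = 0.129). All 4 sorts went the same way in each of these 4 differences. Without background correction, and in the authors' processed values, 1 of the 6 genes passed in the first comparison and 2 in the second.

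Of the death receptor list, 8 of 11 genes were tested. With IL7 1 rose and 1 fell in DN3a cells, 1 rose in DN3b and 1 in DN4 cells, and the list's median difference was 0.06, 0.02 and 0.00388. Among all genes 21%, 9.81% and 2.44% passed in these subsets, so that 2 of 8 in DN3a cells is near the share of all genes. The gene that rose each time was Fas, by 0.49 ± 0.09 in DN3a (adjusted p = 0.00234), 0.87 ± 0.09 in DN3b (adjusted p = 4.33e-05) and 0.45 ± 0.09 in DN4 cells (adjusted p = 0.0239). In DN3b cells its level was 8.58 ± 0.27 with IL7 and 7.71 ± 0.26 untreated (SD, n = 4 each). A second Fas probe rose in DN3a and DN3b cells, by 0.56 and 0.605, and differed by 0.40 in DN4 cells (adjusted p = 0.0618). Fasl, which encodes the ligand of FAS, fell with IL7 in DN3a cells by 1.17 on the log2 scale (adjusted p = 4.76e-05), to 5.53 ± 0.44 with IL7, against 6.69 ± 0.44 untreated. Its probe was not above background on any DN4 array. Fadd, the adaptor, differed by -0.08, 0.14 and 0.15 with IL7 in the 3 subsets and did not pass the test. Cflar, which encodes the caspase-8 inhibitor FLIP and is the annotated neighbour of Casp8 at a distance of 36348 bases, was above background on 0 arrays.

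Around the apoptosome, 7 of 9 genes were tested, and with IL7 1 rose and 1 fell in DN3a cells, 1 rose and 1 fell in DN3b cells and 0 passed in DN4 cells, where 0 also had an unadjusted limma p under 0.05. Of all genes tested, 21%, 9.81% and 2.44% passed in DN3a, DN3b and DN4 cells, shares that apply to each list in turn. The 2 of 7 in DN3a cells is near its share. Diablo, which encodes SMAC, an antagonist of the inhibitors of apoptosis, rose by 0.43 ± 0.06 in DN3a (adjusted p = 0.000371) and 0.31 ± 0.06 in DN3b cells (adjusted p = 0.00592). Birc2, which encodes the inhibitor cIAP1, fell in DN3a cells by 0.39 on the log2 scale (adjusted p = 0.00434), while its 2 other kept probes, at -0.33 and -0.13, did not pass. Htra2 fell in DN3b cells by 0.33 (adjusted p = 0.0157), a call lost under 7 of 14 alternatives. Of the caspase substrates and other caspases, 9 of 14 were tested, and Panx1, a channel opened by caspase cleavage, was the 1 gene that rose, by 0.42 in DN3a (adjusted p = 0.00339) and 0.38 in DN3b cells (adjusted p = 0.0114). This 1 of 9 is below the 21% of all genes in DN3a cells and near the 9.81% in DN3b cells. In the inflammasome list 2 of 4 tested genes fell in DN3a cells, Il18 by 0.47 (adjusted p = 0.0387, lost under 7 of 14 alternatives) and Pycard, the adaptor ASC, by 0.44 (adjusted p = 0.0115, lost under 4 of 14). By limma, 0 of the 4 passed in DN3b and in DN4 cells, with 2 and 0 at an unadjusted p under 0.05.

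Some markers of other cells also moved with IL7. In DN3a cells the summed linear signal of the 2 of 4 NK and cytotoxic markers tested ran from 2770 to 3880 with IL7 and from 1840 to 2250 untreated, and Ncr1 was above background on 0 arrays. That rise lay in Nkg7, at 11.72 with IL7 and 10.93 untreated. Gzma stood at 4.72 with IL7 and 4.93 untreated, not above background on any DN3a array. The sum of the 2 of 4 gamma-delta T cell markers tested ran from 120 to 156 with IL7 and from 212 to 358 untreated, and Il17a was above background on 0 arrays. That fall lay in Blk, at 5.86 with IL7 and 7.51 untreated, while Sox13 stood at 6.39 with IL7 and 6.17 untreated and did not pass. The 2 of 4 dendritic cell markers tested summed to 198 to 232 with IL7 and 137 to 196 untreated, where Irf8 rose by 0.66 and Siglech fell by 0.44, with Itgax above background on 0 arrays. The 8 of 10 neutrophil and myeloid markers tested summed to 304 to 1070 with IL7 and 355 to 1260 untreated, and 1 of them passed, Lyz2, at 5.93 with IL7 and 6.85 untreated. In DN3b cells, where Casp6 and Casp8 rose, the NK and cytotoxic sum ran from 343 to 626 with IL7 and from 219 to 419 untreated, and Nkg7 rose to 8.52 with IL7, against 7.98 untreated. There the gamma-delta T cell sum ran from 58.1 to 92.2 with IL7 and from 67.4 to 114 untreated, and Blk fell to 4.96 with IL7, against 5.68 untreated. Of the thymocyte markers, Ptcra fell in DN3b cells, to 5.63 with IL7, against 6.31 untreated. The part of these markers in the DN3a and DN3b results was not tested. In bulk RNA, a change in the number of cells of a type and a change in the RNA per cell cannot be told apart.

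**Figure D2:**
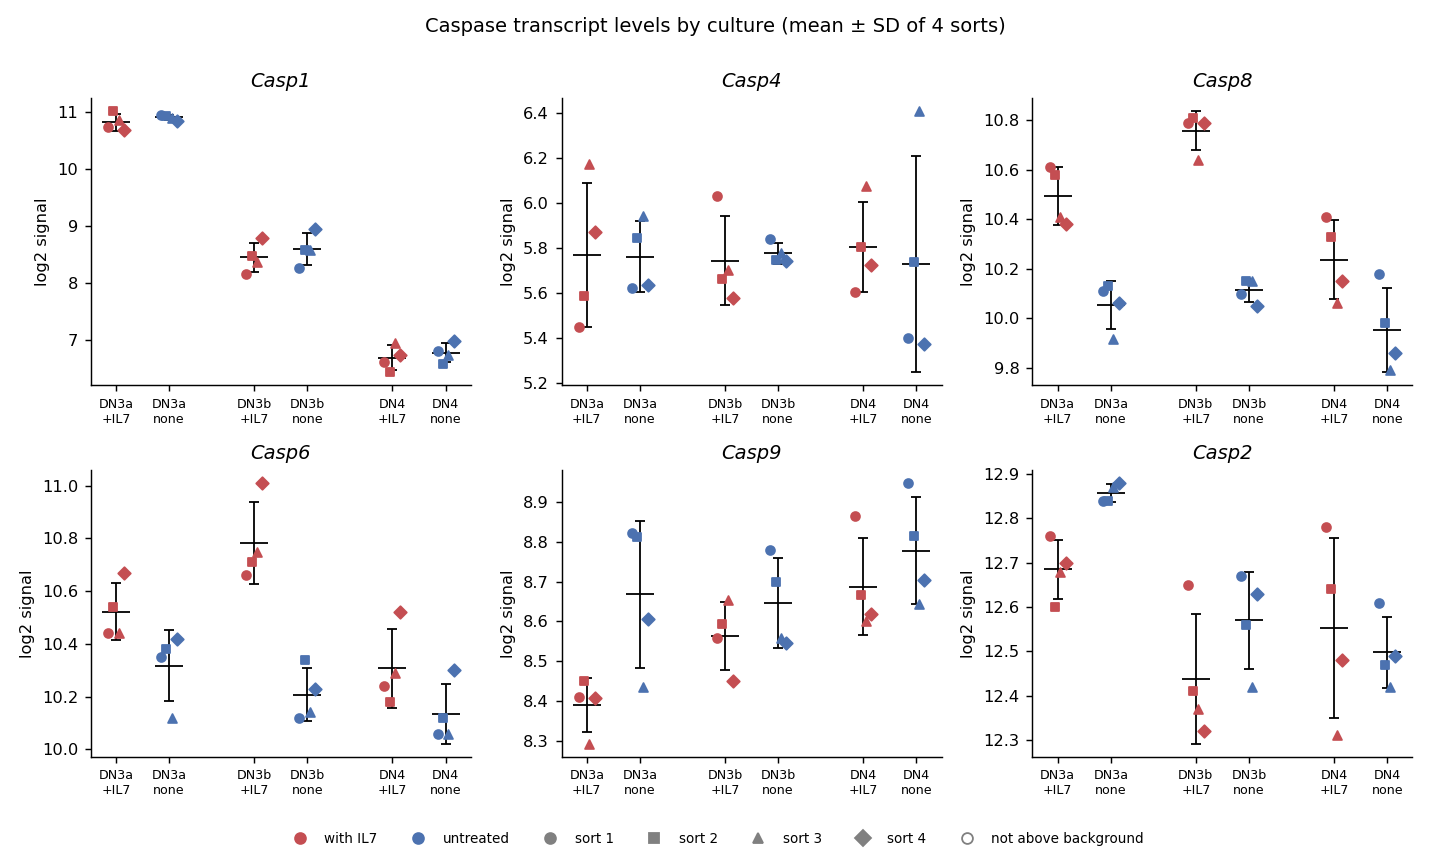
Log2 signal of each caspase (1 panel per gene, each with its own y axis) in the 6 groups, with IL7 in red and untreated (none) in blue. Symbols are sorts, and bars are the mean ± SD of 4 sorts. Casp1 steps down from DN3a to DN3b to DN4 in both cultures, and Casp8 is higher with IL7 in every subset.

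Across the stages, Casp1 was the caspase with the large change. In untreated cultures its level fell at both steps, to 17.6-fold lower in DN4 than in DN3a cells. Casp2 was 1.22-fold lower in DN3b and 1.28-fold lower in DN4 than in DN3a cells, and Casp6, Casp8, Casp9 and the probe that stood for Casp4 did not pass the test in any untreated stage comparison. The second Casp4 probe passed in both comparisons with DN3a cells. Of the 6 genes, 0 rose and 2 fell in DN3b against DN3a cells, where 55.9% of all genes passed. In DN4 against DN3b cells 1 fell, where 4.02% of all genes passed, and in DN4 against DN3a cells 2 fell, where 59.2% passed. The share of caspases past the threshold was thus below that of all genes in 2 of these 3 comparisons. The medians of the 6 genes were -0.06, -0.07 and -0.14 in the 3 comparisons, beside all-gene medians of -0.03, -0.01 and -0.02.

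Casp1 and Casp4 are neighbours on chromosome 9, so their upstream sequences are shown. Casp1 changed at each stage, while the probe that stood for Casp4 did not pass. That probe was near background, with a mean level of 5.76, and a second Casp4 probe was lower after the DN3a stage. No contrast between the 2 genes is therefore drawn. Casp1 spans 5298517 to 5307281 (GRCm38.p6), Casp4 starts 1567 bases after its end and spans 5308849 to 5336791, and Casp12 begins 8650 bases after Casp4. The windows are chr9:5298267-5298516 for Casp1 and chr9:5308599-5308848 for Casp4, both on the plus strand.
Casp1: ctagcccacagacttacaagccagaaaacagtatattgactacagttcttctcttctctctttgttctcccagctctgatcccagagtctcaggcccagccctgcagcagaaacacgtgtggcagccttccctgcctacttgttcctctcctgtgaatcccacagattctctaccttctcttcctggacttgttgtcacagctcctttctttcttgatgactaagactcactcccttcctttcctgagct
Casp4: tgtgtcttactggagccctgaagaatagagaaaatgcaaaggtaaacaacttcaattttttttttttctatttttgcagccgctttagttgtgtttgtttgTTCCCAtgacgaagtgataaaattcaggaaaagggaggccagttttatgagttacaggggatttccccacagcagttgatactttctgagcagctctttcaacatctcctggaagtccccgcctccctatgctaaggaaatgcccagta
The capitals in Casp4 mark a match to the RBPJ core on the minus strand, 149 bases upstream. No letters of the Casp1 window matched the 5 motifs.

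In untreated DN3a cells the Casp1 level was 10.96, 10.94, 10.90 and 10.85 in sorts 1 to 4. In untreated DN3b cells it was 8.27, 8.57, 8.59 and 8.96, and in untreated DN4 cells 6.81, 6.58, 6.74 and 6.98. The 3 groups did not overlap. The difference was -2.32 ± 0.12 between DN3b and DN3a cells, 4.98-fold lower (adjusted p = 2.06e-07), and -1.82 ± 0.12 between DN4 and DN3b cells, 3.53-fold lower (adjusted p = 9.16e-05). Between DN4 and DN3a cells it was -4.13 ± 0.12 (adjusted p = 7.97e-09). Among the 8820 genes, 8 had a fall at least as large as that of Casp1 between DN3b and DN4 cells, Casp1 included, and 15 between DN3a and DN4 cells.

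With IL7, the Casp1 level was 10.74, 11.02, 10.86 and 10.69 in DN3a cells, 8.16, 8.47, 8.38 and 8.79 in DN3b cells and 6.62, 6.44, 6.96 and 6.74 in DN4 cells. The same order held, with differences of -2.38 ± 0.14 between DN3b and DN3a cells (adjusted p = 4.87e-07) and -1.76 ± 0.14 between DN4 and DN3b cells (adjusted p = 8.32e-05). DN4 cells with IL7 stood -4.14 ± 0.14, or 17.65-fold, below DN3a cells with IL7 (adjusted p = 1.34e-08). The probe was above background on all 24 arrays, and all 6 stage differences of Casp1 passed under each of 14 alternatives. The untreated DN4 minus DN3a difference was -4.12 without sorts 1 and 3 and -4.01 without sorts 2 and 3. It was -3.29 with no background correction and -3.39 in the authors' values.

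Markers of other cell types moved with the stages as well. Nkg7, a cytotoxic granule gene, fell by 2.95 between DN3b and DN3a cells and by 1.88 between DN4 and DN3b cells in untreated cultures. In untreated cells the 2 NK and cytotoxic markers tested summed to 1840 to 2250 in DN3a and 219 to 419 in DN3b cells. In DN4 cells they summed to 101 to 117. Ncr1 was above background on 0 arrays and Klrb1c on 2. That fall lay in Nkg7, while the other marker, Gzma, rose in DN4 against DN3a cells. Gzma stood at 4.93, 5.17 and 5.28 in DN3a, DN3b and DN4 cells, above background on 0, 2 and 2 of 4 arrays. The summed B cell signal, which was Cd79b alone, ran from 1110 to 1580, 424 to 580 and 359 to 410 in the same stages, with Cd79a above background on 0 arrays. The 2 of 4 dendritic cell markers tested summed to 137 to 196, 73.7 to 105 and 70.9 to 91.5, with Itgax above background on 0 arrays and Flt3 on 2. The 2 of 4 gamma-delta T cell markers tested summed to 212 to 358, 67.4 to 114 and 54.9 to 84.8. The 8 of 10 neutrophil and myeloid markers tested summed to 355 to 1260, 211 to 468 and 210 to 8880, and their members did not move together. S100a8 in untreated DN4 cells stood at 4.45, 12.39, 12.29 and 7.58 in sorts 1 to 4, so the high DN4 sums came from some sorts. Fcer1g averaged 5.44 in DN3b and 6.56 in DN3a cells (adjusted p = 0.00194), and Lyz2 was at least 3.09-fold lower in DN3b than in DN3a cells (adjusted p = 0.0153). The thymocyte markers (4 of 5 tested) summed to 31700 to 36400, 16700 to 17700 and 18700 to 19700. The part of the NK, B cell, dendritic, gamma-delta T cell and myeloid markers in the Casp1 result was not tested.

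The genes most like Casp1 in level over the 24 arrays were Repin1 (Pearson r of 0.993), Vav3 (0.982) and Nkg7 (0.982). These correlations, and those given for the other caspases, are descriptions over arrays that share sorts, cultures and normalization.

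Caspase-1 acts with the inflammasome, and 4 of the 10 genes of that list were tested. In untreated cells 3 of the 4 fell between DN3b and DN3a cells, 0 passed between DN4 and DN3b cells (1 at an unadjusted limma p under 0.05), and 3 fell between DN4 and DN3a cells, where 55.9%, 4.02% and 59.2% of all genes passed. The list's medians were -1.07, -0.19 and -1.30. Aim2, which encodes a sensor of cytosolic DNA, averaged 5.51 ± 0.22 in DN3b and 6.77 ± 0.35 in DN3a cells, a difference of -1.26 ± 0.19 (adjusted p = 0.000208). Between DN4 and DN3a cells it differed by -1.60 ± 0.19 (adjusted p = 3.41e-05). Gsdmd, which encodes the pore-forming substrate of caspase-1, averaged 8.08 ± 0.15 in DN3b and 9.21 ± 0.11 in DN3a cells, a difference of -1.13 ± 0.08 (adjusted p = 1.38e-06). It stood at 8.04 ± 0.16 in DN4 cells, and its 2 other kept probes fell too.

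Il18 averaged 5.14 ± 0.39 in DN3b and 6.16 ± 0.19 in DN3a cells (adjusted p = 0.000911). It was above background on 0 of 4 untreated DN4 arrays, where it was at least 1.88-fold lower than in DN3a cells (adjusted p = 7.69e-05). That bound sets the bright group against the lowest signal among probes above background on each array, or the probe's own where that was higher. Pycard did not pass in these comparisons, at 7.65 ± 0.30 in DN4 and 7.53 ± 0.22 in DN3a cells. With IL7, 1 of the 4 inflammasome genes tested rose and 3 fell in DN4 against DN3a cells, where 53.9% of all genes passed. The 1 that rose was Pycard, at 7.45 ± 0.11 in DN4 and 7.09 ± 0.33 in DN3a cells. Il1b, Nlrp3, Nlrp1a and Mefv were above background on 0 arrays. Between untreated DN4 and DN3b cells Gsdmd and Pycard differed by -0.04 and 0.23, neither past the threshold. Aim2 was above background on 2 of 4 untreated DN4 arrays and Il18 on 1 of 4 untreated DN3b and 0 of 4 untreated DN4 arrays, so their differences at this step were limited by background.

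**Figure D3:**
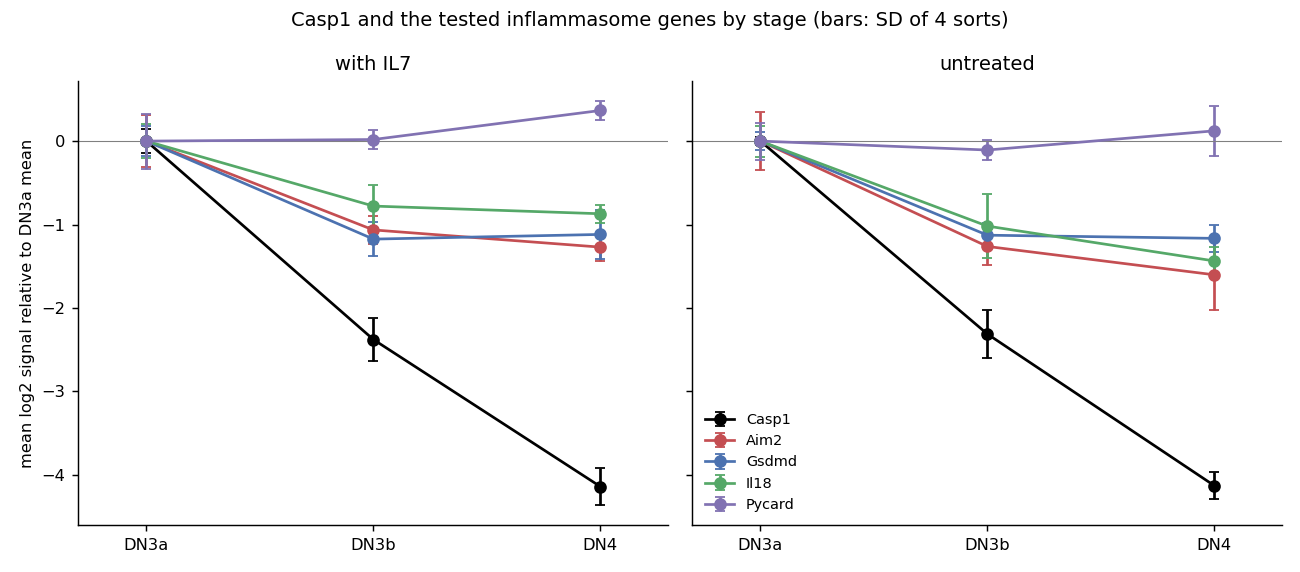
Mean log2 signal relative to the DN3a mean of the same culture (y axis) for Casp1, Aim2, Gsdmd, Il18 and Pycard in DN3a, DN3b and DN4 cells, with IL7 on the left and untreated on the right. Bars are the SD of 4 sorts. Casp1 ends near -4.1 in both panels, and Il18 in DN4 cells is not above background.

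Casp4 had 2 kept probes that did not show the same pattern. The probe that stood for the gene was above background on 24 arrays, and its 6 group means lay between 5.73 and 5.80, with no comparison past the threshold. It was dim, with a detection p of up to 0.0401, against the limit of 0.05. The second probe was above background on 9 arrays, 4 of them DN3a with IL7, 3 DN3a untreated and 2 DN3b with IL7. In DN3a cells the second probe stood at 6.38, 5.93, 5.71 and 6.35 with IL7, against 4.82, 5.60, 5.60 and 5.99 untreated. In DN3b cells it stood at 4.72, 5.12, 5.36 and 5.32 with IL7, against 4.70, 4.89, 4.61 and 4.72 untreated. In DN4 cells it stood between 4.69 and 4.99 with IL7 and between 4.56 and 4.70 untreated, not above background on any array.

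By the second Casp4 probe, IL7-treated DN3a cells were higher than untreated ones by 0.59 ± 0.19 (adjusted p = 0.0467 over 12939 probes). The difference was 1.56 in sort 1, and without that sort it was 0.27 (adjusted p = 0.173). The call was also lost without sort 2 (adjusted p = 0.101) or sort 4 (adjusted p = 0.11), without sorts 1 and 3 (adjusted p = 0.2) and without sorts 2 and 3 (adjusted p = 0.107). Across stages the second probe was at least 1.21-fold lower in untreated DN3b than in DN3a cells (adjusted p = 0.00265) and at least 1.19-fold lower in untreated DN4 than in DN3a cells (adjusted p = 0.00107). The untreated calls were lost without sorts 2 and 3 (adjusted p = 0.0991 and 0.0629). With IL7 the difference of DN3b minus DN3a cells was -0.96 ± 0.17 (adjusted p = 0.000813). It was at least 1.76-fold lower in DN4 than in DN3a cells with IL7 (adjusted p = 0.000113). The 2 probes correlated at -0.108 over the 24 arrays, and the remaining Casp4 probe was above background on 1 array. Which probe follows the Casp4 transcript was not tested, so no stage change is given for the gene.

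**Figure D4:**
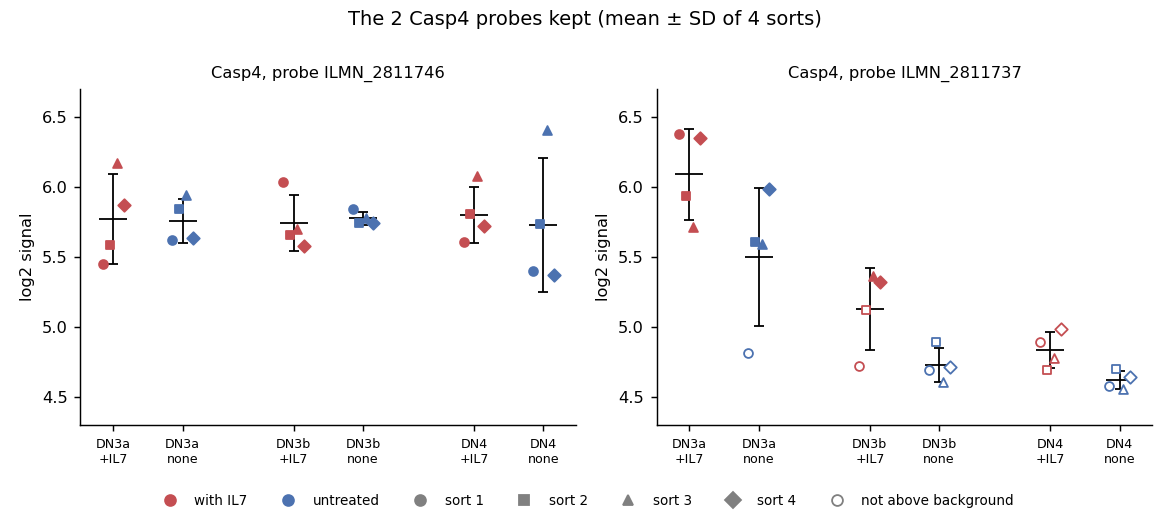
Log2 signal of the 2 kept Casp4 probes (1 panel each, same y axis) in the 6 groups. Symbols are sorts, open where the probe was not above background, and bars are the mean ± SD of 4 sorts. The left probe stays near 5.8 in every group, and the right probe is highest in DN3a cells.

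After normalization, Casp2 was lower after beta-selection in untreated cells by a small margin. Its mean intensity before normalization did not fall, at 6267 in DN3a, 6348 in DN3b and 6524 in DN4 cells. The part of the normalization in this result was not tested. Its level was 12.67, 12.56, 12.42 and 12.63 in DN3b and 12.61, 12.47, 12.42 and 12.49 in DN4 cells, against 12.84, 12.84, 12.87 and 12.88 in DN3a cells. Every DN3b and DN4 array lay below every DN3a array. The differences were -0.28 ± 0.08 for DN3b minus DN3a (adjusted p = 0.00853) and -0.36 ± 0.08 for DN4 minus DN3a (adjusted p = 0.00208). Without sorts 2 and 3 they were -0.21 and -0.31, neither past the threshold (adjusted p = 0.239 and 0.0905). The DN3b call was also lost without sorts 1 and 3 (-0.26, adjusted p = 0.0999). The spread of the DN3a group was narrow, at an SD of 0.02. With IL7, Casp2 stood at 12.65, 12.41, 12.37 and 12.32 in DN3b cells, against 12.76, 12.60, 12.68 and 12.70 in DN3a cells. That difference of -0.25 ± 0.09 (adjusted p = 0.0429) was lost under 8 of 14 alternatives, and with IL7 DN4 cells did not differ from DN3a cells past the threshold (-0.13 ± 0.09, adjusted p = 0.241).

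Pidd1, which encodes the PIDDosome scaffold upstream of caspase-2, went the other way over the same stages. In untreated cells it averaged 8.44 ± 0.30 in DN3b and 6.84 ± 0.46 in DN3a cells, and it rose by 1.61 ± 0.13 (adjusted p = 2.64e-06). In DN4 cells it averaged 8.57 ± 0.26, 1.73 ± 0.13 above DN3a cells (adjusted p = 1.16e-06). It was the 1 gene tested of the 2 on its list.

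The stages were also compared in IL7-treated cultures, which share their arrays with the IL7 effects. Of the 6 genes, 2 rose and 2 fell in DN3b against DN3a cells, where 50.7% of all genes passed. In DN4 against DN3b cells 3 fell, where 6.03% of all genes passed, and in DN4 against DN3a cells 1 rose and 3 fell, where 53.9% passed. Medians of the 6 genes were 0.07, -0.21 and -0.17, beside all-gene medians of -0.03, -0.00209 and -0.02. Apart from the 3 Casp1 calls, each caspase call in these comparisons was lost without sorts 1 and 3 (adjusted p from 0.0912 to 0.199) and without sorts 2 and 3 (adjusted p from 0.137 to 0.385). With IL7, Casp8 was 0.26 ± 0.08 higher in DN3b than in DN3a cells (adjusted p = 0.0169), with no overlap between the 4 values of each. In DN4 cells it fell below DN3b cells by 0.52 on the log2 scale (adjusted p = 0.00333), again with no overlap, and below DN3a cells by 0.26 (adjusted p = 0.0173). The Casp8 call of DN3b against DN3a cells was lost without sort 2, 3 or 4 (adjusted p = 0.0655, 0.0549 and 0.101), and that of DN4 against DN3a cells without sort 2 or 3 (adjusted p = 0.0743 and 0.0926).

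Casp6 followed the same course with IL7. It was 0.26 ± 0.08 higher in DN3b than in DN3a cells (adjusted p = 0.015), lower in DN4 than in DN3b cells at -0.47 ± 0.08 (adjusted p = 0.00466) and lower in DN4 than in DN3a cells at -0.21 ± 0.08 (adjusted p = 0.0341). The last call was lost under 7 of 14 alternatives, the omission of any 1 sort among them. The DN4 to DN3b call was lost without sort 2 (adjusted p = 0.0568), and the DN3b to DN3a call without sort 3 or 4 (adjusted p = 0.0751 and 0.0827). The second Casp6 probe did not pass in these comparisons, while the second Casp8 probe passed in DN3b against DN3a cells (0.33, adjusted p = 0.0311) and in DN4 against DN3b cells (-0.54, adjusted p = 0.0199), calls that were lost under 4 and 6 of 9 alternatives, the omission of either pair of sorts among them. Over 24 arrays the levels of Casp6 and Casp8 correlated at 0.789, the highest of the 15 pairs of the 6 genes.

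Casp9 was higher in DN4 than in DN3a cells with IL7, at 8.86, 8.67, 8.60 and 8.62 in DN4 cells, against 8.41, 8.45, 8.29 and 8.41 in DN3a cells. The groups did not overlap, and the difference was 0.30 ± 0.09 (adjusted p = 0.014), lost without sort 1 (adjusted p = 0.0632). In untreated cells the level was 8.95, 8.81, 8.64 and 8.70 in DN4 cells, against 8.82, 8.81, 8.43 and 8.60 in DN3a cells, and the difference of 0.11 ± 0.07 did not pass (adjusted p = 0.225). Untreated DN3b cells were at 8.78, 8.70, 8.56 and 8.55 and IL7-treated DN3b cells at 8.56, 8.59, 8.65 and 8.45. The 6 group means ran from 8.39 ± 0.07 in IL7-treated DN3a to 8.78 ± 0.13 in untreated DN4 cells.

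The other genes of the caspase pathways were compared across the stages of untreated cells, where 55.9% of all genes passed for DN3b minus DN3a, 4.02% for DN4 minus DN3b and 59.2% for DN4 minus DN3a. In these comparisons 5 of the 8 death receptor genes passed between DN3b and DN3a cells (2 rose and 3 fell), 1 rose between DN4 and DN3b cells, and 7 passed between DN4 and DN3a cells (4 rose and 3 fell). The first count is near the share of all genes. Fadd rose by 0.80 ± 0.08 in DN3b (adjusted p = 2.07e-05) and by 0.87 ± 0.08 in DN4 against DN3a cells (adjusted p = 8.91e-06). Its other kept probes gave 0.76, 0.21 and 0.80 in DN3b against DN3a cells, and the 0.21 did not pass (adjusted p = 0.0587). In DN4 against DN3a cells they gave 0.87, 0.27 and 1.03, all past the threshold. Fas rose by 1.11 ± 0.14 in DN4 against DN3b cells (adjusted p = 0.0017) and by 1.29 ± 0.14 against DN3a cells (adjusted p = 1.82e-05). Fasl was at least 2.72-fold lower in DN4 than in DN3a cells (adjusted p = 3.16e-06). Ripk3, the necroptosis kinase held in check by caspase-8, rose by 0.57 in DN3b against DN3a cells (adjusted p = 0.0117), and Traf2 fell by 0.51 (adjusted p = 0.00483).

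Of the 7 apoptosome genes and inhibitors tested, 3 rose and 1 fell between DN3b and DN3a cells, 0 passed between DN4 and DN3b cells (0 also at an unadjusted limma p under 0.05), and 1 rose and 2 fell between DN4 and DN3a cells. The 4 of 7 that passed between DN3b and DN3a cells are near the 55.9% of all genes, and the 3 of 7 between DN4 and DN3a cells are below the 59.2%. Birc5, which encodes survivin, a protein of dividing cells, averaged 12.86 ± 0.09 in DN3b and 9.02 ± 0.43 in DN3a cells, a rise of 3.84 ± 0.18 (adjusted p = 1.1e-07). Birc2 fell by 0.83 in DN3b (adjusted p = 2.52e-05) and by 1.00 in DN4 against DN3a cells (adjusted p = 5.37e-06), and 1 of its 2 other probes did not pass between DN4 and DN3a cells. Xiap rose by 0.54 in DN3b against DN3a cells by the probe that stood for it (adjusted p = 0.0264), and its other kept probe had the opposite sign (-0.23, adjusted p = 0.331). Apaf1 did not pass in these comparisons.

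Among substrates and other caspases, 3 of 9 rose and 2 fell in both comparisons with DN3a cells, and 0 passed between DN4 and DN3b cells (2 at an unadjusted limma p under 0.05). The 5 of 9 are near the 55.9% and 59.2% of all genes. Lmna, which encodes lamin A, a substrate of caspase-6, rose by 2.38 ± 0.14 in DN3b (adjusted p = 3.15e-07) and by 2.93 ± 0.14 in DN4 against DN3a cells (adjusted p = 5.87e-08). Lmnb1 rose by 1.95 and 1.98 in the same comparisons. Parp1, a DNA repair enzyme cut during apoptosis, rose by 0.46 (adjusted p = 0.000392) and 0.26 (adjusted p = 0.0123). Xkr8, a lipid scramblase activated by caspases, fell by 0.65 (adjusted p = 0.000504) and 0.83 (adjusted p = 8.81e-05). Casp12 was above background on 11 arrays and passed in no comparison, and Casp14 was above background on 1 array and was not tested.

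**Figure D5:**
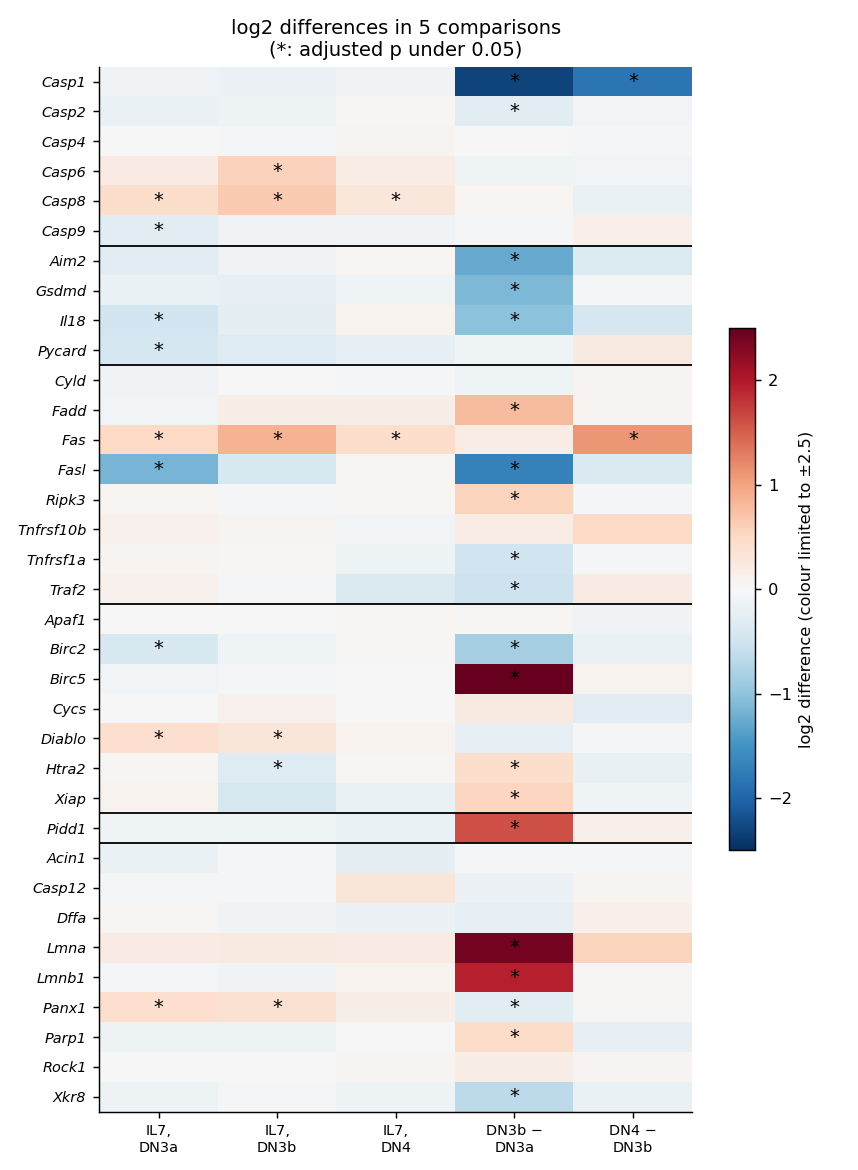
Log2 differences of the 6 caspases (top block) and of the tested inflammasome, death receptor, apoptosome, PIDDosome and substrate genes (blocks below, in that order) in 5 comparisons, 3 of IL7 minus untreated and 2 between untreated stages. Red is higher and blue lower in the first named group, with colours limited to 2.5 on the log2 scale, and a star marks an adjusted p under 0.05. Most stars lie in the DN3b minus DN3a column, and in DN4 minus DN3b the starred genes are Casp1 and Fas.

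The genes closest in pattern to the other caspases over the 24 arrays were Ndrg1 (Pearson r of 0.926), Fcmr (0.923) and Rras2 (0.893) for Casp8, and Strip2 (0.916), Cobll1 (0.856) and Nupr1 (0.853) for Casp6. For Casp2 they were Tnfsf14 (0.897), Ankrd10 (0.892) and Pbx2 (0.877), and for Casp9 Ccng2 (0.846), then St8sia4 and Gde1 (0.822). For the first Casp4 probe the highest values were lower, with Rnf185 (0.738), Trcg1 (0.715) and Rnf10 (0.698). Between caspases, Casp1 and Casp2 correlated at 0.584 and Casp1 and Casp9 at -0.511 over the 24 arrays.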

How the data were processed

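RNA from 24 cultures was measured on Illumina mouse Ref8v2 beadchips, 250 ng per culture per the labels' protocols. The deposited intensities are linear and not normalized between arrays (array medians from 93.3 to 119.8), with a detection p-value beside each intensity per the file headers. GenomeStudio 2011.1 is named in the submitters' processing notes, and R Bioconductor 2.13.0 with limma in the design text. A second deposited table holds the authors' log2 values of the same arrays, all columns with a median of 6.734, and it served as an alternative. The number of per-sample columns left unused was 0.

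Here the intensities were corrected with neqc in limma 3.58.1 (R 4.3.3, negative controls inferred from detection p, offset 16). The offset compresses changes of dim probes, while background correction can enlarge changes. The untreated DN4 minus DN3a difference of Casp1 was -4.13 with the correction and -3.29 without it. Probes with detection p under 0.05 on at least 4 arrays were kept (12939), and the probe with the highest mean stood for each of 8820 genes. Where p-values of second probes are given, the fit ran over all kept probes. IL7 effects and their differences were fitted over 24 arrays with 12 culture pairs as blocks, and stages over 12 arrays with 4 sorts as blocks. Thresholds are Benjamini-Hochberg adjusted p under 0.05. The pairing comes from the sort numbers in the labels: cultures of the same subset and sort deviated from their group means together (lowest correlation 0.238, median 0.465), and 24 of 24 arrays correlated best with their own sort.

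The members, gene lists and tests were chosen with earlier results of these data known. Pathway genes named as past the threshold were chosen from the 4 largest such changes of their list, and not every one of these is named. For each caspase the 3 genes with the highest correlation were named, clones and predicted genes passed over. Sequences came from RefSeq tables of GRCm38.p6. The build behind the probe annotation was not given in the sources used here. The scripts were tested on simulated data. Alternatives covered the background correction, the authors' values, the filter, the probe choice, the blocks and samples in the fit, and the omission of sorts. The number of arrays limits the precision.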

Additional observations from a re-analysis of the deposited data

Results flagged for a closer look

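In 123 sets of 4 values, of levels or of differences per sort, 4 held a sort far from the other 3, and chance alone flags about 1 in 20. Casp8 in DN3b cells with IL7 stood at 10.64 in sort 3, against 10.79 to 10.81 in the others. The Casp8 difference between untreated DN3b and DN3a cells was 0.2297 in sort 3, against -0.01431 to 0.01853 in the others. For Casp1 with IL7, the difference between DN3b and DN3a cells was -1.899 in sort 4, against -2.581 to -2.48 in the others. Casp12 in DN4 cells with IL7 stood at 5.116 in sort 3, against 5.455 to 5.487 in the others.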

How the results depend on the processing

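The 21 caspase differences past the threshold were recomputed under 294 alternatives in all: 235 kept direction and threshold, 59 kept direction only and 0 reversed. The 6 stage differences of Casp1 and the IL7 effect on Casp8 in DN3b cells were past the threshold in every alternative tried. Counts below are of the 6 caspases past the threshold. Without the replicate block the count was 1 in place of 2 for IL7 in DN3a, 0 in place of 1 for IL7 in DN4, 1 in place of 4 for DN3b minus DN3a with IL7 and 2 in place of 4 for DN4 minus DN3a with IL7. From the 8 arrays of a subset alone it was 1 for IL7 in DN3a and 0 for IL7 in DN4. Without sorts 1 and 3, and without sorts 2 and 3, it was 0 and 0 for IL7 in DN3a, 0 and 0 for IL7 in DN4, and 1 and 1 for DN3b minus DN3a in untreated cells and for all 3 stage comparisons with IL7. It was also 1 for IL7 in DN3b without sorts 1 and 3, and 1 for DN4 minus DN3a in untreated cells without sorts 2 and 3. Leaving out 1 sort gave 1 to 2 for IL7 in DN3a, 0 to 0 for IL7 in DN4, 1 to 3 for DN3b minus DN3a with IL7 and 2 to 3 for DN4 minus DN3a with IL7. For the difference of IL7 effects, no background correction and the authors' values each gave 1 in place of 0 (DN3b minus DN3a) and 2 in place of 0 (DN4 minus DN3b), and the cause was not tested. Choosing the probe with the highest F turned Casp4 to -0.7717 for DN3b minus DN3a in untreated cells and to -1.254 for DN4 minus DN3a with IL7, since that is its second probe. Among all genes, calls without the block numbered 905 for IL7 in DN3a (1850 with it), 417 in DN3b (865), 103 in DN4 (215), 166 for DN4 minus DN3b untreated (355) and 277 with IL7 (532). For the differences of IL7 effects they numbered 37 for DN3b minus DN3a (150), 16 for DN4 minus DN3b (27) and 128 for DN4 minus DN3a (473). Subsets alone gave 495 for IL7 in DN3b and 93 in DN4, and all 24 arrays gave 538 and 849 for DN4 minus DN3b untreated and with IL7. No background correction and the authors' values gave 582 and 566 for DN4 minus DN3b untreated, 809 and 799 with IL7, and 386 and 361, 122 and 105, and 774 and 741 for the differences of IL7 effects. The stricter detection limit gave 231 in place of 150. Leaving out 1 sort gave 1210 to 1392 for IL7 in DN3a, 507 to 637 in DN3b, 90 to 145 in DN4, 110 to 225 for DN4 minus DN3b untreated and 208 to 387 with IL7, and 46 to 60, 5 to 18 and 167 to 213 for the differences of IL7 effects. Without sorts 1 and 3, and without sorts 2 and 3, these 8 counts were 616 and 478, 348 and 256, 61 and 66, 66 and 34, 156 and 40, 0 and 0, 0 and 0, and 24 and 6. Without sorts 2 and 3 the counts with IL7 were 2439 for DN3b minus DN3a (4471 with all sorts) and 2929 for DN4 minus DN3a (4758). For IL7 in DN4 the share of calls that rose was 76.3%, against 64.6% with no background correction and 65.9% in the authors' values. Dim probes, such as both kept Casp4 probes, are limited by background.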
